A study of Mus musculus with 6 samples.

Results

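The genes described here are 41 genes of the blood vessel endothelium, with the transcription factors, receptors and junction proteins on which Norrin and its receptor Fz4 act in other vascular beds. They were taken as a fixed list of symbols, and 75 probe sets, the groups of short oligonucleotides that stand for 1 transcript on the array, carry these symbols alone. The list includes Angpt1, which comes mostly from cells around vessels. The brightest probe set of each gene over all 6 arrays stood for the gene, out of 18193 genes on the array. A filter on low signal (mean log2 level at or above the 40th percentile of all probe sets, 5.89) left 40 of the 41, out of 12535 genes, and S1pr1 fell below it.

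RNA of whole kidneys from mouse embryos at E13.5 was measured in 3 Fz4-/- samples and 3 Fz4+/+ samples on Affymetrix MOE430.2 arrays. In each of 3 litters, 1 sample came from either genotype. The labels name no strain, sex, allele structure or treatment, and leave unsaid if embryos were pooled, so that p-values measure the spread between these samples, which may in part be technical. Fz4 is the protein of Fzd4 and was missing from every cell type of the kidney as far as the genotype label goes, so effects on endothelium and on other cells are measured together.

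Norrin is a secreted ligand that binds Fz4 with the co-receptor Lrp5 and the tetraspanin Tspan12 and stabilises beta-catenin in endothelial cells. In the retina and brain this signal raises the SoxF transcription factors Sox7, Sox17 and Sox18 and the tight junction protein Cldn5, and holds down Plvap, the protein of the diaphragms of leaky vessels. In the embryonic kidney, vessels grow in among the ureteric branches and nephron precursors under the control of VEGF and angiopoietins, and later form glomerular and peritubular capillaries with many fenestrations. In RNA from a whole kidney, fewer endothelial cells and less RNA per endothelial cell cannot be told apart.

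The targeted gene went with the labels on every array. The brightest Fzd4 probe set read 4.37, 3.58 and 6.22 in Fz4-/- kidneys of litters 1 to 3, against 11.21, 11.12 and 10.31 in Fz4+/+ kidneys, and an exact two-sided permutation test gave 0.1, the smallest p that 3 against 3 samples allow. The same difference, -6.16 ± 0.68 (SE), had a limma p adjusted over all probe sets of 0.999988. A second, dimmer Fzd4 probe set differed by -3.44 ± 0.35 (SE), with an adjusted limma p of 0.999988, or 0.129 with the litter as a block. The remaining one read close to 3 throughout, below the filter, and the mean of all 3 differed by -3.20. Array medians ran from 6.62 to 6.74 on the log2 scale, and having 3 arrays a genotype limits how precise any difference is. A principal component analysis put 70.8% of the variance on an axis that separated litter 3 (48.7 in Fz4-/- and 70.1 in Fz4+/+) from the other samples (-48.9 to -0.098), and the Fz4+/+ sample of litter 2 lay apart on the second, at -32.7 against -10.5 to 20.1. All 11 genes of the kidney list with a probe set, Six2, Wt1, Ret and Foxd1 among them, passed the signal filter.

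Endothelial genes as a group read slightly higher in Fz4-/- kidneys, and no single member passed the test. limma called 0 of 40 members and 0% of the 27022 features tested when an adjusted p under 0.05 was asked for, and 1 member, Fabp4, at an unadjusted p under 0.05, against 0.884% of all probe sets. That member was higher in Fz4-/- (0.57% of all probe sets) and 0 were lower (0.315%). The difference, Fz4-/- minus Fz4+/+ on the log2 scale, was above 0 for 33 of 40 members, against 61.6% of all probe sets. The median difference was 0.11 for the members and 0.0334 for all tested probe sets. In litters 1, 2 and 3 the members above 0 numbered 26, 33 and 19, against 48.5%, 68.2% and 49.9% of all probe sets, with median differences of 0.0756, 0.25 and -0.0236. The higher readings thus came from litters 1 and 2, and in litter 3 the members were near balance. The members' median was 0.0317 without litter 2 and 0.0672 when only its Fz4+/+ sample was left out. It was 0.196 without litter 3, 0.193 when only the Fz4+/+ sample of that litter was left out, and 0.07 after quantile normalization, where the median of all probe sets was 0.010 and 28 of 40 stood above 0. When the litter was a block, the unadjusted limma p was under 0.05 for 5 members (Robo4, Angpt1, Angpt2, Vwf and Fabp4), against 3.11% of all probe sets, and the adjusted test called 0 members. Without the block, the count of 1 member became 7 when the Fz4+/+ sample of litter 3 was left out, 3 when its Fz4-/- sample was, 5 without that litter and 0 without litter 2. The count over all 27022 probe sets moved as well, from 239 with every sample to between 81 and 1725 with a sample or litter left out.

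**Figure D1:**
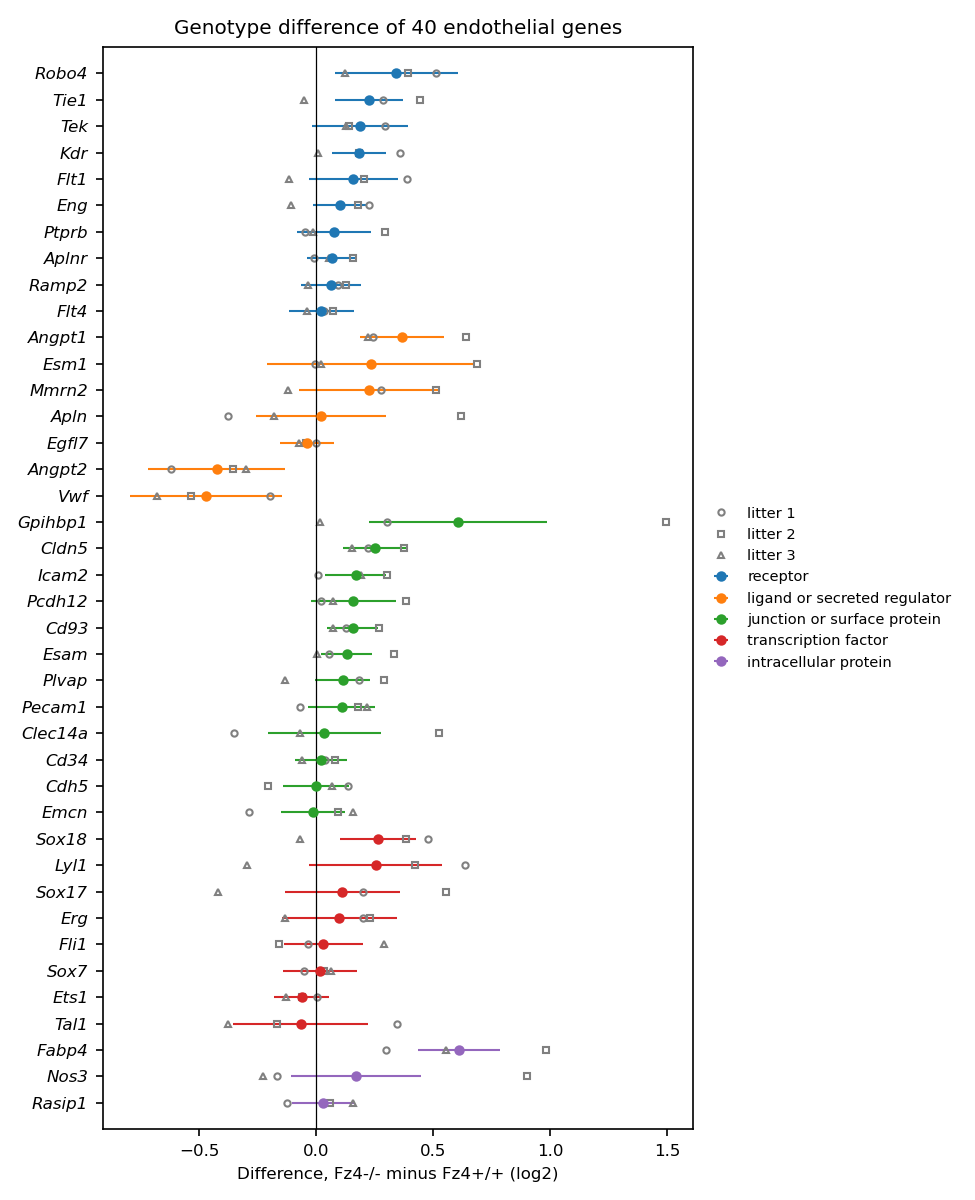
Difference between Fz4-/- and Fz4+/+ kidneys (log2, horizontal axis) for the 40 endothelial genes past the signal filter, ordered by role. Filled points are the mean difference with its standard error from limma (n = 3 each) and open grey symbols are the difference within each litter. Most points lie between 0 and 0.4, while Angpt2 and Vwf lie below -0.4 and Fabp4 and Gpihbp1 above 0.6.

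Of the 40 members, 11 read higher in Fz4-/- kidneys in all 3 litters (27.5%, against 14.2% of all probe sets) and 3 read lower in all 3 litters (7.5%, against 7.28%). The share of higher members lies above that of all probe sets and the share of lower ones near it, and neither gap was tested. Genotypes did not overlap for 2 members, both higher in Fz4-/- (2.42% of all probe sets did so), and for 0 in the other direction (1.21%).

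The receptors of the endothelial surface leaned the same way. All 10 receptors past the filter had a difference above 0, against 61.6% of all probe sets, with a median of 0.13. Of these, 3 (Kdr, Tek and Robo4) were higher in every litter, against 14.2% of all probe sets. Kdr, the main signalling receptor for VEGF, read 9.86, 9.81 and 9.59 in Fz4-/- kidneys of litters 1 to 3, against 9.50, 9.62 and 9.58 in Fz4+/+ kidneys. The groups overlapped only because Fz4-/- litter 3 lay below Fz4+/+ litter 2, and the difference was 0.18 ± 0.12 (SE). Tek, the angiopoietin receptor Tie2, read 10.49, 10.36 and 10.85 in Fz4-/- kidneys, against 10.20, 10.22 and 10.73 in Fz4+/+ kidneys. Both samples of litter 3 were the highest of their genotype, so that the spread between litters was larger than the genotype difference of 0.19 ± 0.21 (SE). Robo4, a roundabout family receptor that is largely endothelial, read 8.35, 8.72 and 8.86 in Fz4-/- kidneys, against 7.83, 8.33 and 8.74 in Fz4+/+ kidneys. Litter 1 was the lowest and litter 3 the highest in both genotypes, and its difference of 0.34 ± 0.26 (SE) had an SE of 0.12 and an unadjusted limma p of 0.0376 once the litter was a block, with an adjusted p of 0.999986. With a sample or litter left out, the difference ran from 0.097 to 0.27 for Kdr, 0.045 to 0.36 for Tek and 0.11 to 0.56 for Robo4.

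By the brightest probe set, the other receptors were higher in only some litters. Tie1, the partner of Tek, differed by 0.23 ± 0.14 (SE) and was higher by 0.28 and 0.45 in litters 1 and 2 but not in litter 3 (-0.05). Flt1, a VEGF receptor that mostly acts as a decoy, differed by 0.16 ± 0.19, and Eng, a co-receptor for ligands of the TGF beta family, by 0.10 ± 0.11. A dimmer Flt1 probe set differed by 0.24 ± 0.12 (SE) without overlap. It was higher in each litter, though by 0.003 in litter 3, and the other Flt1 probe sets differed by 0.04 and 0.05. Flt4, the receptor for VEGF-C that later marks lymphatic vessels, differed by 0.02 ± 0.14 and turned to -0.012 after quantile normalization. The apelin receptor Aplnr (0.07 ± 0.11), the adrenomedullin receptor partner Ramp2 (0.06 ± 0.13) and the phosphatase Ptprb (0.08 ± 0.16), which acts on Tek and VE-cadherin, lay close to the median of all probe sets. S1pr1, a receptor for sphingosine 1-phosphate, had levels of 5.43 to 5.81 over all 6 arrays, below the filter. It differed by -0.07 and was not tested.

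Among the ligands and secreted proteins, the angiopoietins went opposite ways. Angpt1, the agonist of Tek that comes mostly from cells around vessels, read 9.26, 9.22 and 9.41 in Fz4-/- kidneys of litters 1 to 3, against 9.02, 8.58 and 9.19 in Fz4+/+ kidneys. The genotypes did not overlap, by a gap between 9.22 and 9.19, and the difference was 0.37 ± 0.18 (SE), with an unadjusted limma p of 0.0856, or 0.0392 with the litter as a block. Angpt2, which antagonises Angpt1 on Tek in many settings and is stored in endothelial granules, read 6.04, 6.17 and 6.91 in Fz4-/- kidneys, against 6.65, 6.52 and 7.21 in Fz4+/+ kidneys. It was lower in Fz4-/- in each litter, by -0.62, -0.36 and -0.30, and litter 3 was the highest in both genotypes. The difference of -0.43 ± 0.29 (SE) had an unadjusted limma p of 0.195, or 0.0145 with the litter as a block, and adjusted p-values of 0.999988 and 0.999986. A second Angpt2 probe set differed by -0.0015 with an SE of 0.14, so the lower reading rests on the brightest probe set alone. The second Angpt1 probe set differed by 0.33 ± 0.39 (SE), and was not higher in every litter. With a sample or litter left out, the brightest probe set ran from 0.19 to 0.50 for Angpt1 and from -0.69 to -0.22 for Angpt2, and the mean of both Angpt2 probe sets was -0.21.

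Vwf, the clotting factor carrier stored in the same granules as Angpt2, read 5.56, 5.65 and 6.21 in Fz4-/- kidneys, against 5.76, 6.18 and 6.89 in Fz4+/+ kidneys. It was lower in Fz4-/- in each litter, with a difference of -0.47 ± 0.33 (SE) and an unadjusted limma p of 0.199, or 0.0189 with the litter as a block. It ran from -0.73 to -0.16 with a sample or litter left out. Its readings were near the signal filter of 5.89. Egfl7, a matrix protein that endothelial cells secrete, was also lower in each litter but by little: 9.42, 9.30 and 9.50 in Fz4-/- kidneys against 9.43, 9.35 and 9.58 in Fz4+/+ kidneys, a difference of -0.04 ± 0.12 (SE). The 3 other probe sets of Egfl7 had differences between 0.0059 and 0.056. Platelets also hold Vwf. Of the 6 platelet and megakaryocyte genes 3 passed the filter, and their mean level was 6.95, 7.17 and 7.17 in Fz4-/- kidneys, against 7.09, 7.07 and 7.33 in Fz4+/+ kidneys. Itga2b, the defining platelet integrin, was lower in each litter with no overlap, by -0.31 ± 0.12 (SE, unadjusted limma p of 0.0398). Its part in the reading of Vwf was not tested.

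The remaining secreted members differed in sign between litters. Apln, the apelin ligand of sprouting tip cells, differed by 0.02 ± 0.28 (SE) and Esm1, a proteoglycan of tip cells, by 0.23 ± 0.45. Mmrn2, an extracellular matrix protein that binds Cd93 and Clec14a, differed by 0.22 ± 0.30, and its 3 other probe sets, 1 of them below the filter, had differences between 0.22 and 0.23.

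**Figure D2:**
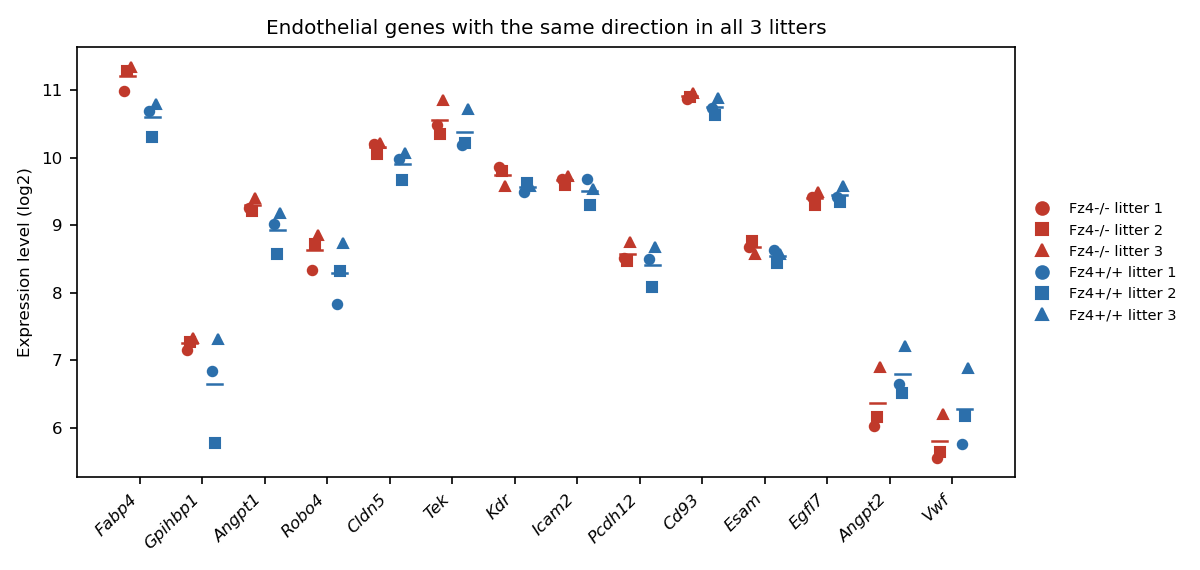
Expression level (log2, vertical axis) of the 14 members that differed in the same direction in all 3 litters, with Fz4-/- kidneys in red on the left of each pair and Fz4+/+ kidneys in blue. Symbols mark the litter and bars the mean of 3 samples. Fabp4 and Angpt1 are the 2 genes whose genotypes do not overlap, and Angpt2 and Vwf are lower in Fz4-/- within each litter.

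Proteins of endothelial junctions and of the cell surface were the role with the largest share of members higher in every litter, 6 of 12, among them Cldn5, Esam, Icam2, Cd93, Pcdh12 and Gpihbp1. Their median difference was 0.12, and 10 of 12 were above 0. Of all probe sets, 14.2% were higher in every litter and 61.6% were above 0. Esam, an adhesion molecule of tight junctions, read 8.69, 8.77 and 8.58 in Fz4-/- kidneys, against 8.63, 8.44 and 8.58 in Fz4+/+ kidneys, so that only litter 2 was clearly apart. Icam2 read 9.69, 9.60 and 9.73 in Fz4-/- kidneys, against 9.68, 9.30 and 9.53 in Fz4+/+ kidneys. This leukocyte adhesion molecule differed by 0.17 ± 0.13 (SE). Cd93, a receptor for Mmrn2, read 10.87, 10.91 and 10.96 in Fz4-/- kidneys, against 10.74, 10.64 and 10.89 in Fz4+/+ kidneys, and its difference of 0.16 ± 0.11 (SE) was not shared by 1 of its dimmer probe sets (-0.15 ± 0.17). Pcdh12, a protocadherin found with VE-cadherin, read 8.52, 8.47 and 8.75 in Fz4-/- kidneys, against 8.50, 8.09 and 8.68 in Fz4+/+ kidneys.

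Gpihbp1, which carries lipoprotein lipase across capillary endothelium, had among the widest spreads. It read 7.15, 7.28 and 7.34 in Fz4-/- kidneys, against 6.85, 5.78 and 7.32 in Fz4+/+ kidneys. Its difference of 0.61 ± 0.38 (SE) rested on litter 2, at 1.50, while litters 1 and 3 gave 0.30 and 0.02. It ran from 0.16 to 0.94 with a sample or litter left out. The Fz4+/+ sample of litter 2 held the lowest of the 6 readings for 18 of the 40 members, against 35.4% of all probe sets. The log2 signal of 3' over 5' probe sets, a sign of RNA quality, ran from 0.64 to 0.86 for actin in Fz4-/- kidneys. In Fz4+/+ kidneys it ran from 0.76 to 0.90, with that sample the highest. For Gapdh it ran from 0.75 to 0.86 in Fz4-/- kidneys. There the Fz4+/+ samples gave 0.770, 0.895 and 0.897 in litters 1 to 3, so that litter 3 was the highest. The part of RNA quality in the members' differences was not tested.

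The signs of 6 junction and surface members, Plvap among them, differed between litters. Cdh5, VE-cadherin itself, differed by -0.0013 with an SE of 0.14, with -0.21 in litter 2 and 0.14 and 0.07 in litters 1 and 3. Pecam1, the adhesion molecule also called CD31, differed by 0.11 ± 0.14 (SE), the sialomucin Emcn by -0.01 ± 0.14 and Cd34, another sialomucin, by 0.02 ± 0.11. Clec14a, a lectin-like receptor, differed by 0.04 ± 0.24, and the signs of Cd34 and Clec14a turned after quantile normalization, to -0.012 and -0.0076.

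Whether genes that answer to Norrin and Fz4 in other vascular beds differed from general endothelial markers was asked on the 5 genes Sox7, Sox17, Sox18, Cldn5 and Plvap. None of them was lower on average in Fz4-/- kidneys, and none passed the test. Cldn5 read 10.20, 10.06 and 10.22 in Fz4-/- kidneys of litters 1 to 3, against 9.98, 9.68 and 10.07 in Fz4+/+ kidneys. It was higher in Fz4-/- in each litter, though the groups overlapped, since the Fz4+/+ sample of litter 3 lay above Fz4-/- in litter 2. Cldn5 differed by 0.25 ± 0.14 (SE), with a 95% interval of -0.08 to 0.59 and an unadjusted limma p of 0.117, or 0.0551 with the litter as a block.

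The SoxF factors did not share a pattern over the litters. Sox18 read 8.40, 8.10 and 8.13 in Fz4-/- kidneys, against 7.92, 7.71 and 8.20 in Fz4+/+ kidneys, a difference of 0.26 ± 0.16 (SE) with a 95% interval of -0.14 to 0.66. It was higher in litters 1 and 2 and lower by -0.07 in litter 3. Sox17 read 7.95, 8.15 and 8.08 in Fz4-/- kidneys, against 7.75, 7.59 and 8.50 in Fz4+/+ kidneys. The Fz4-/- samples, with an SD of 0.10, lay inside the range of the Fz4+/+ samples, with an SD of 0.48. The difference of 0.11 ± 0.25 (SE) had an interval of -0.49 to 0.72. A second Sox17 probe set, below the filter at 5.40 to 5.77 and not tested, was higher in Fz4-/- in each litter without overlap. That of Sox7, at 3.20 to 3.49 and not tested, differed in sign between litters. Sox7 read 8.80, 8.96 and 8.60 in Fz4-/- kidneys, against 8.85, 8.93 and 8.53 in Fz4+/+ kidneys. It followed the litter rather than the genotype, with litter 3 the lowest in both, and the difference of 0.02 ± 0.16 (SE, interval of -0.37 to 0.40) turned to -0.029 after quantile normalization.

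Plvap read 9.56, 9.63 and 9.35 in Fz4-/- kidneys, against 9.38, 9.34 and 9.48 in Fz4+/+ kidneys. It was higher by 0.18 and 0.29 in litters 1 and 2 and lower by -0.13 in litter 3, a difference of 0.11 ± 0.12 (SE) with an interval of -0.17 to 0.40. With a sample or litter left out, it ran from 0.024 to 0.24 for Plvap, 0.14 to 0.33 for Cldn5, 0.15 to 0.43 for Sox18, -0.11 to 0.39 for Sox17 and -0.10 to 0.11 for Sox7. The 95% intervals of all 5 genes thus included 0, which does not show that the genotypes are alike.

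Set beside these genes, the mean of the 21 general endothelial markers past the filter was 9.12, 9.19 and 9.24 in Fz4-/- kidneys of litters 1 to 3, against 9.02, 9.00 and 9.21 in Fz4+/+ kidneys. This mean was higher in Fz4-/- in each litter, by 0.10, 0.20 and 0.03. In litters 1, 2 and 3, 14, 18 and 11 of the 21 were above 0, against 48.5%, 68.2% and 49.9% of all probe sets. Their median differences there were 0.0955, 0.185 and 0.0024, against -0.0066, 0.116 and -0.00025 for all probe sets. Over the 3 litters together, 18 of the 21 general markers were above 0, against 61.6% of all probe sets. The median difference was 0.10 over the 21 general markers and 0.18 over Sox7, Sox17, Sox18 and Cldn5. The median of these 4 genes was 0.113 without litter 1, 0.0966 without litter 2 and 0.339 without litter 3. When only a Fz4+/+ sample was left out, it was 0.115 for that of litter 2 and 0.359 for that of litter 3. The median of the general markers was 0.156 without litter 3, 0.0462 when only its Fz4-/- sample was left out, 0.181 when only its Fz4+/+ sample was, and 0.0596 after quantile normalization.

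The mean of the general markers was then subtracted on each array. The values that follow compare the genotypes only, because the offset of a probe set from the mean has no meaning of its own. Relative to the general markers, Cldn5 stood at 1.08, 0.86 and 0.98 in Fz4-/- kidneys, against 0.96, 0.68 and 0.86 in Fz4+/+ kidneys, higher within each litter by 0.12, 0.18 and 0.12. Sox18 was higher by 0.38 and 0.19 in litters 1 and 2 and lower in litter 3 (-0.10), a mean of 0.16. Sox17 gave 0.10, 0.36 and -0.45 in the 3 litters, a mean of 0.0035, and Sox7 gave -0.15, -0.16 and 0.03, a mean of -0.09. Plvap gave 0.08, 0.09 and -0.16, a mean of 0.0043. Of the 5 genes, Cldn5 was the 1 whose relative level had the same direction in each litter, and no test was made of these relative levels.

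**Figure D3:**
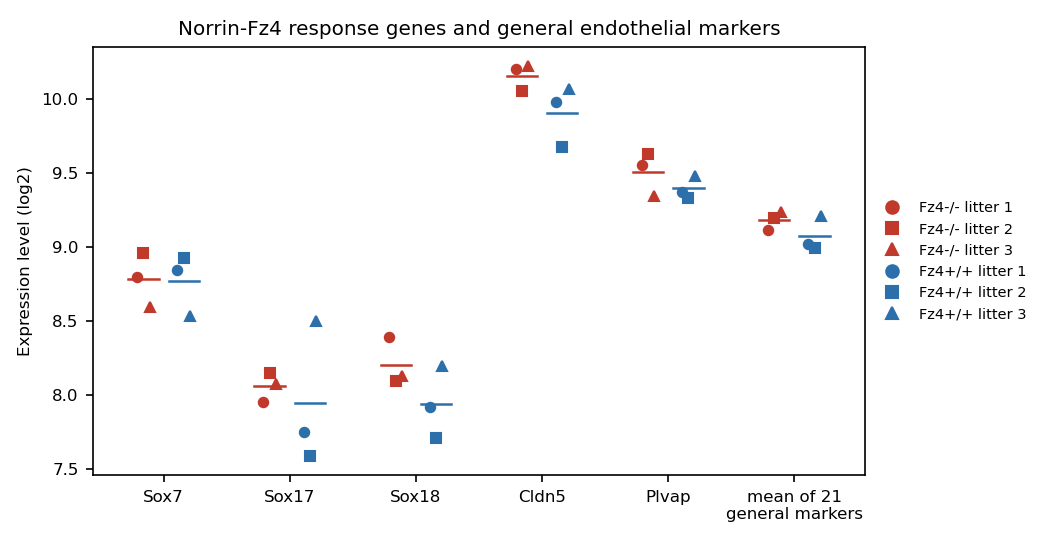
Expression level (log2, vertical axis) of Sox7, Sox17, Sox18, Cldn5 and Plvap and the mean of 21 general endothelial markers, with Fz4-/- kidneys in red on the left and Fz4+/+ kidneys in blue. Symbols mark the litter and bars the mean of 3 samples. Cldn5 is higher in Fz4-/- within each litter, the values of Sox7 pair by litter, and the Fz4+/+ samples of Sox17 spread from 7.59 to 8.50.

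The other transcription factors of the endothelium had differences between -0.07 and 0.25, none of which passed the test. The ETS family factors Erg, Fli1 and Ets1, which bind many endothelial promoters and enhancers, differed by 0.10 ± 0.25, 0.03 ± 0.17 and -0.06 ± 0.12 (SE). Tal1 and Lyl1, related basic helix-loop-helix factors shared by blood and endothelium, differed by -0.07 ± 0.29 and 0.25 ± 0.28. Over the 8 transcription factors, the 3 SoxF genes included, the median difference was 0.07, and 0 of 8 had the same direction in all 3 litters. Tal1 and Lyl1 also mark red cell precursors, whose list had 8 of 12 genes past the filter and a mean level of 8.86, 8.52 and 8.62 in Fz4-/- kidneys, against 8.38, 8.10 and 9.54 in Fz4+/+ kidneys. As with Lyl1, at 7.03, 6.62 and 6.91 in Fz4-/- kidneys, against 6.39, 6.20 and 7.21 in Fz4+/+ kidneys, the Fz4+/+ sample of litter 3 was the highest and that of litter 2 the lowest. Tal1 read 7.73, 7.35 and 7.94 in Fz4-/- kidneys, against 7.38, 7.52 and 8.32 in Fz4+/+ kidneys, with the same sample the highest but Fz4-/- litter 2 the lowest. The part of red cells in the readings of Tal1 and Lyl1 was not tested.

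Of the intracellular proteins, Fabp4 had the smallest unadjusted p of all members. This fatty acid binding protein of capillary endothelium, fat cells and macrophages read 11.00, 11.29 and 11.35 in Fz4-/- kidneys, against 10.70, 10.31 and 10.80 in Fz4+/+ kidneys. All Fz4-/- samples lay above all Fz4+/+ samples, and the difference was 0.61 ± 0.18 (SE), with an unadjusted limma p of 0.0127 and an adjusted p of 0.999988. A second probe set went the same way, by 0.73 ± 0.17 (SE), and the 2 others were below the filter. Averaged over all 4 probe sets, Fabp4 differed by 0.36. Among fat cell markers Adipoq was below the filter at 3.13 to 3.77 over all arrays, and the 5 other fat genes past the filter had a mean level of 8.73, 8.74 and 8.70 in Fz4-/- kidneys, against 8.78, 8.62 and 8.63 in Fz4+/+ kidneys. Of these 5, Cd36, a fatty acid transporter that capillaries also carry, differed by 0.31 ± 0.29 (SE) and was higher in each litter with overlap, and the factor Cebpa differed by 0.09 ± 0.10 with no overlap, while Fabp5 was lower in each litter, by -0.12 ± 0.11. The macrophage list read 7.68, 7.56 and 7.88 in Fz4-/- kidneys, against 7.63, 7.50 and 8.16 in Fz4+/+ kidneys, with litter 3 lower in Fz4-/-. The part of either cell type in the reading of Fabp4 was not tested. Nos3, the endothelial nitric oxide synthase, differed by 0.17 ± 0.28 (SE) and Rasip1, a Ras-interacting protein needed for vessel lumens, by 0.03 ± 0.13.

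Where a gene had several probe sets, they did not always go together. Of 19 members with more than 1 probe set, 14 had more than 1 past the filter, and in 8 of these 14 the differences shared a sign. They were mixed for Cd93, Clec14a, Egfl7, Eng, Ets1 and Ptprb. For Eng the second probe set read -0.26 ± 0.25 (SE) and was lower in Fz4-/- in each litter, against 0.10 on the brightest. Mmrn2, Fabp4, Angpt1, Angpt2, Aplnr, Fli1, Flt1 and Flt4 kept 1 sign.

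The promoters of Kdr, Tek, Robo4 and Cldn5 are shown. Of the members higher in all 3 litters, only these have an entry in the promoter set used (build GRCm38.p6), which covers 18 members. Each line gives the 250 bases before the gene's start, 5' to 3' on the strand of the gene, with matches in capitals. The intervals are chr5:75978456-75978705 on the minus strand for Kdr, and on the plus strand chr4:94739039-94739288 for Tek, chr9:37401722-37401971 for Robo4 and chr16:18776597-18776846 for Cldn5.
Kdr: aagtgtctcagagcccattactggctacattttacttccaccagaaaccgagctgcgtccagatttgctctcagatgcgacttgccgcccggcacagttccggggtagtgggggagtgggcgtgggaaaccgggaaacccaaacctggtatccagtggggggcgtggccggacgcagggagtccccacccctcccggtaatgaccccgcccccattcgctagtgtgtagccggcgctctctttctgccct
Tek: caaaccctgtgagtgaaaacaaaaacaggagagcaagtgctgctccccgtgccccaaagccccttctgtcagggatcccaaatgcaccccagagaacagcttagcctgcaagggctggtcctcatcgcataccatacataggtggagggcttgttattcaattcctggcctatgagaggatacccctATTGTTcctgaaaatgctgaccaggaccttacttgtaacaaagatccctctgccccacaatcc
Robo4: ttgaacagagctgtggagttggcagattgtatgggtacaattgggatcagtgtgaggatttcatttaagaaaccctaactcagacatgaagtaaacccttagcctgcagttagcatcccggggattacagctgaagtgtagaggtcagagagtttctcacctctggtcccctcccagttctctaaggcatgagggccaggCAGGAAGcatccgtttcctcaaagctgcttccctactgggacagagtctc
Cldn5: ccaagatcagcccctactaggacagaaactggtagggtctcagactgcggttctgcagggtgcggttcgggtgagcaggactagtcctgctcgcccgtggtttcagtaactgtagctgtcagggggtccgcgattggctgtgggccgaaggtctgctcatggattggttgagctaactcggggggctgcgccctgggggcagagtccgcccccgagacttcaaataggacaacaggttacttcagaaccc
Searched on both strands were CAGGAAG or CCGGAAG for ETS factors, AACAAT for SOX factors and ATCAAAG for the beta-catenin partners TCF and LEF, and no window shown here holds more than 1 of them. The Robo4 window holds the ETS letters (CAGGAAG, from base -50) and the Tek window the SOX letters on the other strand (ATTGTT, from base -63). The Kdr and Cldn5 windows hold none of them, which says only that these letters are not in these bases. Of the 18 members with a promoter entry, 8 held the ETS letters in at least 1 promoter (9 of 23 promoters), against 17.0% of 32851 promoters. The SOX letters were found in 3 of 23, against 9.42%, and the TCF/LEF letters in 1 of 23, an Egfl7 promoter, against 3.21%.

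Partners of the members in vessel growth were followed on lists of 107 genes, of which 97 were measured past the filter. limma called 0 of these 97, and their median difference without Fzd4 was 0.0432, close to the 0.0334 of all probe sets. Of the 97, 65 were above 0 (67%), against 61.6% of all probe sets. Genotypes did not overlap for 4 of the 97 that were higher and 3 that were lower, Fzd4 included. Of all probe sets, 2.42% and 1.21% did so. In the list of VEGF and angiopoietin partners 6 of 13 were above 0, with a median of -0.01. The ligand Vegfb was higher in each litter, by 0.17 ± 0.13 (SE), the hypoxia factor Epas1 lower in each litter, by -0.12 ± 0.10, and Vegfa, the main VEGF ligand, differed by -0.12 ± 0.17. In the Notch, ephrin and arteriovenous list 12 of 16 were above 0, with a median of 0.08. Hey2, a Notch target of arteries that other kidney cells also express, read 8.95, 9.00 and 9.04 in Fz4-/- kidneys, against 9.31, 9.61 and 9.16 in Fz4+/+ kidneys. The genotypes did not overlap, and the difference of -0.37 ± 0.14 (SE) had an unadjusted limma p of 0.0409 and an adjusted p of 0.999988. The receptor Notch1 did not overlap either, in the other direction, with a difference of 0.11 ± 0.10 (SE). Dll4, the Notch ligand of tip cells, differed by 0.39 ± 0.26 (SE), with litter 3 going the other way.

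In the list of TGF beta and BMP signalling 10 of 12 were above 0, with a median of 0.06. Bmper, a secreted regulator of BMP signalling, read 11.26, 11.36 and 11.33 in Fz4-/- kidneys, against 10.94, 11.16 and 11.03 in Fz4+/+ kidneys, without overlap (0.27 ± 0.11, SE, unadjusted limma p of 0.0409). Of the Norrin and barrier genes 13 of 19 were above 0, with a median of 0.03 and Fzd4 among the lower ones. In that list Mfsd2a, a lipid transporter of barrier endothelium, differed by 0.21 ± 0.20 (SE) and the beta-catenin target Apcdd1 by 0.14 ± 0.16. Other endothelial regulators had 15 of 20 above 0 and a median of 0.05, and Bcl6b (0.21 ± 0.11) and Foxc1 (0.18 ± 0.10) did not overlap between the genotypes.

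Cells beside the endothelium gave these values. In the lymphatic list 4 of 5 were above 0, with a median of 0.15, but Prox1, the defining lymphatic factor, differed by -0.62 ± 0.26 (SE). Prox1 was not lower in every litter, its genotypes overlapped, and its unadjusted limma p was not under 0.05. Among pericyte and smooth muscle genes 5 of 12 were above 0, with a median of -0.05. Acta2, smooth muscle actin, read 10.08, 10.03 and 10.00 in Fz4-/- kidneys, against 10.47, 10.55 and 10.15 in Fz4+/+ kidneys, with no overlap (-0.35 ± 0.13, SE, unadjusted limma p of 0.0400). Cspg4, the pericyte proteoglycan NG2, went the other way, by 0.44 ± 0.19. The median difference was -0.01 over red cell genes, -0.04 over macrophage genes and -0.04 over the kidney list.

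**Figure D4:**
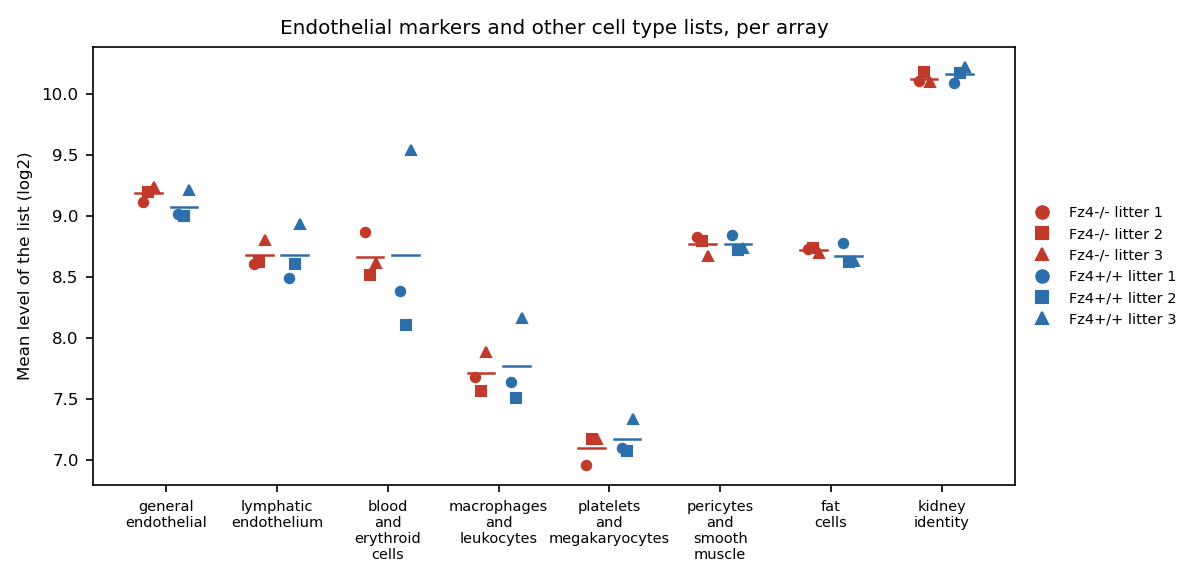
Mean level (log2, vertical axis) of the 21 general endothelial markers and of the lists for other cell types, per array, with Fz4-/- kidneys in red on the left and Fz4+/+ kidneys in blue. Symbols mark the litter and bars the mean of 3 samples. The endothelial means span 9.00 to 9.24, while the red cell list spans 8.10 to 9.54 with the Fz4+/+ sample of litter 3 on top.

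The members were also compared between litters. Litter 3 stood above the mean of litters 1 and 2 for 30 of 40 members, against 67.1% of all probe sets, with a median litter difference of 0.22 for the members and 0.14 for all probe sets. The highest of the 6 readings lay in litter 3 for 27 of 40 members, 12 of them in Fz4-/- and 15 in Fz4+/+, against 55.9% of all probe sets. In a fit with genotype and litter, limma's F-test of the litter called 0 of 40 members and 0% of all probe sets at an adjusted p of 0.05. At an unadjusted p under 0.05 it met 8 of 40 members, against 23% of all probe sets, so the members' share was near that of all probe sets. The 8 were Angpt2, Esm1, Vwf, Robo4, Tek, Erg, Mmrn2 and Tal1. By the brightest probe sets, Esm1 had the largest litter difference of all members, at 0.83. Its levels were 6.22, 7.38 and 7.48 in Fz4-/- kidneys of litters 1 to 3, against 6.23, 6.69 and 7.46 in Fz4+/+ kidneys. In litters 1 and 3 the 2 genotypes were almost equal. Esm1 was the 1 member called by the litter test when litter 2 was left out (adjusted limma p of 0.0230, with 11.2% of all probe sets called) or its Fz4-/- sample alone (0.0398, with 5.57%).

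The litter difference was 0.71 for Angpt2 and 0.76 for Vwf, and both genes were highest in litter 3 in both genotypes. Both were dim, at mean levels of 6.58 and 6.04. Not all members followed: by the brightest probe set, Flt1 (-0.38), Sox7 (-0.32), Fli1 and Cdh5 were lower in litter 3. Dimmer probe sets past the filter went the other way for Flt1 (1.16 and 0.58, with another at -0.06) and Fli1 (0.48). All 7 secreted members were higher in litter 3, with a median of 0.50, against 0.17 for the 21 general markers. The dim members Esm1, Vwf, Angpt2 and Apln, at mean levels of 6.04 to 6.91, gave 0.50 to 0.83. Mmrn2, Angpt1 and Egfl7, whose brightest probe sets had mean levels of 9.11 to 9.48, gave 0.40, 0.28 and 0.17. The part of the signal level in this was not tested. In litter 3 the macrophage list also stood higher, by a median of 0.43, and the red cell list by 0.68. For the red cell list this rested on the Fz4+/+ sample of litter 3, at a mean of 9.54. The Fz4-/- sample of that litter, at 8.62, lay below that of litter 1, at 8.86. The part of both lists in the litter difference of the members was not tested. Over all 6 arrays the median SD of a gene was 0.16 for the general markers, 0.20 for all members and 0.21 for all probe sets.

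**Figure D5:**
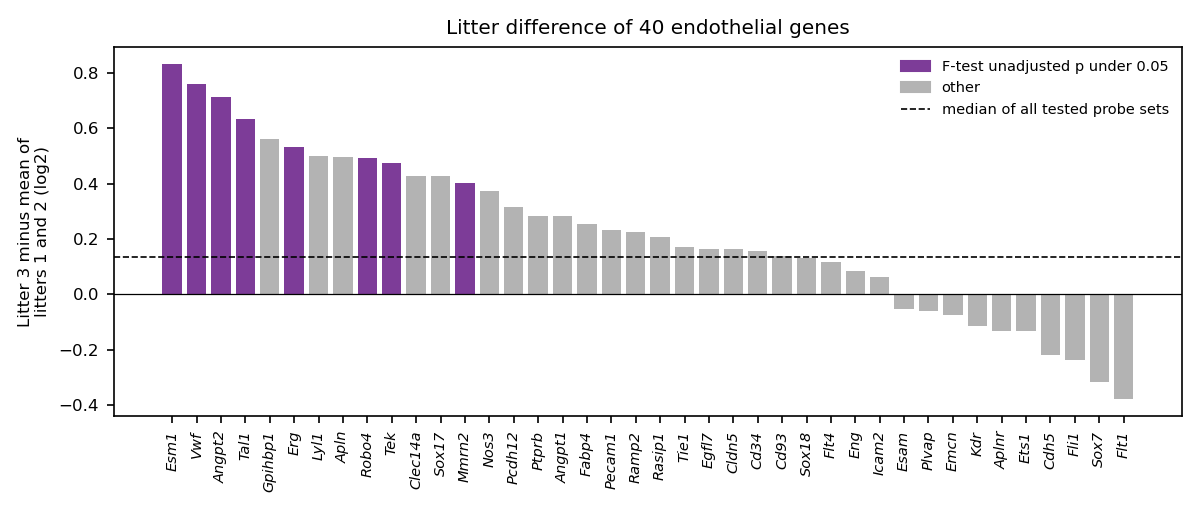
Litter 3 minus the mean of litters 1 and 2 (log2, vertical axis) for the 40 endothelial genes past the filter, each litter being the mean of its 2 samples. Purple bars have an unadjusted F-test p under 0.05 and the dashed line is the median of all tested probe sets. Esm1, Vwf and Angpt2 have the highest values, and Flt1 the lowest.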

How the data were processed

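Biotin-labelled RNA of 6 whole-kidney samples was hybridised to 1-colour arrays. The submitters' processing notes name RMA without a version, and the deposited values are log2 expression levels per probe set, used as deposited. No scan files were used here and no detection calls. The platform annotation gave 1 gene for 34945 probe sets, control probe sets left out, and several genes for 932, which were not named. Symbols were checked by Entrez number against RefSeq (GRCm38.p6), and 0 changed.

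Leaving aside 64 control probe sets, 27022 at or above the 40th percentile of mean level, 5.89, were tested with limma 3.58.1 in R 4.3.3 (genotype as the only term, two-sided, Benjamini-Hochberg over all of them, threshold 0.05). Litters were tested by limma's F-test with genotype as a second term. Samples with the same number come from the same litter, per the labels, and deviations from the genotype means correlated by 0.577, 0.178 and 0.809 in litters 1 to 3. The fits were tested on simulated data.

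The members, the gene lists and their split into roles, general markers and Norrin response genes were chosen with earlier results of these data known, so no list was tested as a group. Values in every sample are given for Fzd4, the 5 response genes and the members with the same direction in all 3 litters or no overlap between the genotypes, and from each other list 1 or more of the 3 genes of smallest unadjusted p. From the red cell, macrophage and kidney lists only means and medians are given. A few further values were chosen after they were seen (Lyl1, Tal1, Esm1 and Adipoq). Alternatives covered the litter as a block, quantile normalization, the filter, averaging over the probe sets of a gene, and each sample and each litter left out.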

Additional observations from a re-analysis of the deposited data

How the results depend on the processing

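limma called 0 probe sets, 0 members and 0 vascular list genes between the genotypes under each of the 15 alternatives that gave these counts. With the litter as a fixed or random block (replicate block), 841 and 940 probe sets had an unadjusted p under 0.05, against 239 without it, and 5 and 3 members against 1. The fixed block also took the vascular lists from 4 to 5 of 97 genes, Fzd4 among them, at an unadjusted limma p under 0.05. The pericyte and smooth muscle list went from 1 to 2 of 12, and the shares of all probe sets were 0.884% and 3.11%. The fixed block changed no call at an adjusted p. Without the filter 531 probe sets had an unadjusted p under 0.05, with the 60th percentile filter 141, and with samples or litters left out 81 to 1725. The litter test called 3 probe sets with the 60th percentile filter, and 0 to 3032 probe sets and 0 to 1 members with samples or litters left out.

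The signs of several members turned, none of them past the threshold. After quantile normalization Flt4 read -0.012, Sox7 -0.029, Cd34 -0.012, Rasip1 -0.0097 and Clec14a -0.0076. Averaged over the probe sets of a gene, Cdh5 read 0.11, Eng -0.079, Sox7 -0.026, Ets1 0.033, Egfl7 0.013, Pcdh12 -0.039, Clec14a -0.080 and Cd93 -0.0091. Each average takes in the dimmer probe sets of the gene. Some of these lay below the filter, with mean levels of 4.60 for Cdh5, 3.34 for Sox7 and 5.29 and 4.19 for Pcdh12. Why the probe sets of a gene differed, and why signs turned after quantile normalization, was not tested. With a sample or litter left out, the differences that crossed 0 ran from -0.070 to 0.11 for Flt4, -0.10 to 0.10 for Cdh5, -0.097 to 0.13 for Emcn, -0.10 to 0.11 for Sox7, -0.11 to 0.39 for Sox17, -0.081 to 0.34 for Erg, -0.11 to 0.18 for Fli1, -0.091 to 0.025 for Egfl7 and -0.017 to 0.44 for Mmrn2. They ran from -0.28 to 0.24 for Apln, -0.047 to 0.64 for Esm1, -0.20 to 0.39 for Nos3, -0.033 to 0.091 for Cd34, -0.27 to 0.22 for Tal1, -0.0080 to 0.29 for Pcdh12, -0.071 to 0.13 for Rasip1, -0.21 to 0.24 for Clec14a, -0.20 to 0.012 for S1pr1 and -0.050 to 0.20 for Ptprb. With 3 arrays a genotype, RMA values near background limit what Vwf, Angpt2 and Apln can show.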
